A study of Mus musculus with 24 samples.

Results

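Oxidative phosphorylation genes encode the respiratory chain and the ATP synthase of mitochondria. They were taken from the table of gene rhythms by symbol: names beginning with Nduf, Uqcr, Atp5 or mt-, Cox followed by a digit from 4 to 8, and Sdha, Sdhb, Sdhc, Sdhd, Cyc1 and Cycs. Pseudogenes, mitochondrial tRNA and ribosomal RNA genes were left out. This gave 91 of the 17721 genes of the table, all nuclear encoded and protein coding. Of the 13 protein genes of the mitochondrial chromosome, 0 matched a row, so mitochondrial encoding was not analysed here. The 91 genes comprised 36 of complex I, 8 complex I assembly factors, 4 of complex II, 9 of complex III, Cycs (cytochrome c), 16 of complex IV and 17 of complex V. Of these, 79 encode structural subunits and 12 encode assembly factors, cytochrome c or proteins related to subunits.

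The samples were epidermis cells from the back skin of male C57BL/6 mice aged 8 weeks, in which a Cre recombinase under the keratin 14 promoter knocked out Bmal1. Bmal1 (symbol Arntl) encodes BMAL1, which with CLOCK switches on the genes of the circadian clock. These mice are called EpiKO. Keratin 14 is made by basal keratinocytes, so the knockout does not reach immune cells or melanocytes of the epidermis through that promoter. There were 24 EpiKO libraries, 4 from separate mice at every 4 h from ZT0 to ZT20, where ZT0 is lights on in a cycle of 12 h light and 12 h dark. Per the series design text, the clock was active in all other tissues of these mice, and their epidermal rhythms were set against those of wild-type (WT) mice. None of the 24 samples is WT, so genotype and set of libraries cannot be told apart in any difference between EpiKO and WT.

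The respiratory chain passes electrons from NADH (complex I) and succinate (complex II) through complex III and cytochrome c to oxygen at complex IV, and complex V uses the resulting proton gradient to make ATP. Each complex except complex II is built from nuclear and mitochondrially encoded subunits, which need assembly factors to be joined. In epidermal stem cells, the balance between oxidative phosphorylation and glycolysis is known to vary over the day, a variation that needs Bmal1.

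The authors' deposited table holds a finished fit and no values per library, so no error over animals can be given and no test was made. For each gene it gives weights from 0 to 1 for 5 rhythm models: no rhythm, rhythm in EpiKO only, in WT only, the same rhythm in both, or different rhythms. A gene was given the class of its highest-weighted model if the weight reached 0.5. These weights are model probabilities, not p-values. The same-rhythm model fits a single height and a single peak time to both genotypes, and a genotype without a rhythm in its model is fitted flat. Mean levels and peak-to-trough heights are log2 values, not scaled by gene length. Arntl was assigned a rhythm in WT only (weight 0.882, 4.65-fold, peak at ZT22.7), with mean levels of 9.65 in EpiKO and 9.50 in WT; the mean level therefore does not show the deletion, and the labels do not say which part of the gene was removed. Of 8 keratinocyte markers, 7 were in the table, at levels from 8.68 to 17.7 in EpiKO. Among 14 striated muscle markers, 13 were measured, with a summed level of 6.61 in EpiKO and 10.0 in WT, where Acta1 (skeletal muscle actin) made up most of the sum at 9.90; of the 13, 3 were higher in EpiKO, 5 lower and 5 equal, with a median difference of 0. Leukocyte markers (4 of 5 measured) summed to 10.9 in EpiKO and 9.91 in WT, with 3 higher and none lower, and fibroblast markers (5 of 5) to 9.76 and 9.45, with 3 higher, none lower and a median difference of 0.74 (log2). Melanocyte markers (4 of 4) summed to 8.43 and 8.57, and adipocyte markers (5 of 6) to 6.90 and 6.28. Of the 5 adipocyte markers, 1 was higher in EpiKO and 4 were equal. The higher one, Cidea (6.82 in EpiKO and 6.15 in WT), made up most of their sum. The part of these other cell types in the levels below was not tested, and in bulk samples fewer cells of a type and less RNA per cell cannot be told apart.

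About as many oxidative phosphorylation genes were assigned no daily rhythm as were not, and most of those rhythmic in WT had the same rhythm in EpiKO. In the authors' deposited table, 47 of 91 (51.6%) were assigned no rhythm, against 56.7% of all genes. The same rhythm in both genotypes was assigned to 23 (25.3%), against 16.7% of all genes. However, 81 of the 91 genes lay at or above the median level of the table, and among all genes at or above it the share was 24.9%, close to that of the oxidative phosphorylation genes. Of the 27 genes assigned any rhythm in WT, 23 (85.2%) thus had the same one in EpiKO, against 60.1% of all genes with a WT rhythm. A rhythm in WT only was assigned to 4 (4.40%), against 8.41% of all genes, and one in EpiKO only to 4, against 4.31%. No gene (0 of 91) was assigned different rhythms, against 2.65% of all genes, and 13 reached no weight of 0.5. Summing the weights in place of counting assignments gave 26.5 genes with the same rhythm (29.1% of the weight, against 21.2% over all genes), 10.3 with WT only (11.3% against 13.5%) and 8.76 with EpiKO only (9.62% against 9.0%). Different rhythms took 2.73% against 4.94%, and no rhythm 47.3% against 51.3%. On this measure the WT-only share lay closer to that of all genes than the assignments put it.

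**Figure D1:**
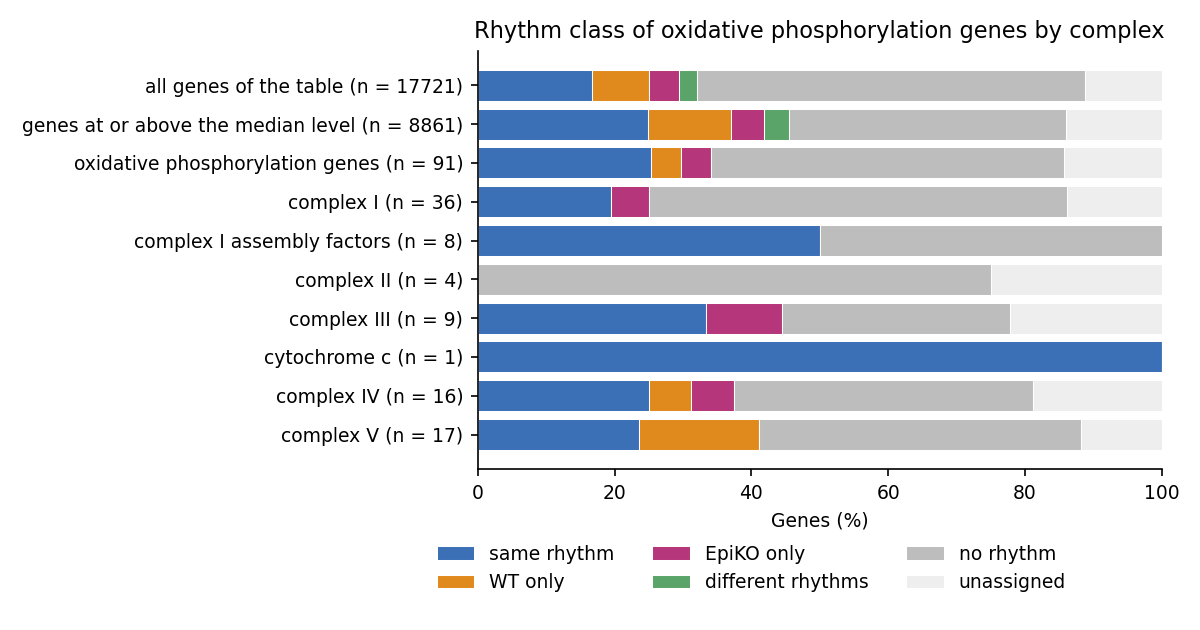
Share of genes in each rhythm class, in percent, for the whole table, for genes at or above the median level, for the 91 oxidative phosphorylation genes and for each complex. The same-rhythm share of the 91 genes (25.3%) lies beside that of genes at or above the median level (24.9%), and complex I assembly factors hold the same rhythm in 4 of 8 genes.

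The plot of shares by complex shows where the rhythmic genes lay. The same rhythm was assigned to 7 of 36 complex I genes, 4 of 8 complex I assembly factors, 0 of 4 complex II genes, 3 of 9 complex III genes, Cycs, 4 of 16 complex IV genes and 4 of 17 complex V genes. Structural subunits accounted for 17 of the 23, which is 21.5% of the 79. All 4 genes rhythmic in EpiKO only were structural subunits. All 4 also shared at least 5% of their transcript windows of 51 bases, the read length, with other genes (Ndufb2 5.44%, Uqcrc2 17.6%, Ndufb4 18.2% and Cox7c 22.0%), so that 0 of the oxidative phosphorylation genes under 5% had this class; over all genes with at least 5% it was 4.16%. Windows were counted on either strand. All shared windows of Uqcrc2 matched Pdzd9 on the antisense strand, and those of Ndufb2 included antisense matches to Gm16272 and Braf. The kit was stranded, but no setting of the counting is given. With a weight limit of 0.8 the EpiKO-only class also held 0%. Of the genes rhythmic in WT only, 2 of 4 (Atp5s and Ndufa4l2) were not structural subunits. These assignments depended on the limits used: with a minimum height of 0.25 (log2) 12.1% of the 91 genes kept a same-rhythm call, and with a weight limit of 0.8 11.0% did. Just outside the limit of 0.5 were Cox6a1 (0.496, same rhythm leading), Ndufa6 (0.497, same rhythm) and Atp5f1 (0.498, EpiKO only). Just inside were Ndufaf5 (0.520, same rhythm), Cox5a (0.523, same rhythm) and Atp5c1 (0.524, no rhythm).

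The shared rhythms peaked in the dark phase. Of the 23 genes, 19 (82.6%) peaked between ZT16 and ZT24, against 40.7% of all same-rhythm genes in the authors' deposited table, and these 19 lay between ZT17.8 and ZT22.9 with a circular mean of ZT20.1. Counted in steps of 4 h from ZT0, the peaks of the 23 genes numbered 0, 0, 4, 0, 10 and 9, while those of all 2954 same-rhythm genes numbered 216, 743, 523, 270, 862 and 340. Over all 23 genes the circular mean was ZT19.4 with a resultant length of 0.635, where 1 means that all peaks coincide and 0 that they are spread evenly; for all same-rhythm genes it was 0.0740. The remaining 4 genes formed a group late in the light phase, from ZT9.17 to ZT11.6, with none between ZT12 and ZT16. The heights were small: the median was 0.25 (log2), or 1.19-fold from trough to peak, with a range of 1.09-fold to 1.70-fold. For all same-rhythm genes the median was 1.24-fold, and for those at or above the median level 1.21-fold. Of the 4 melanocyte markers, 3 had the same rhythm in both genotypes as well, with peaks at ZT17.3 (Dct), ZT17.7 (Tyrp1) and ZT17.9 (Pmel) and heights of 2.65-fold, 4.38-fold and 1.71-fold; their part in the dark-phase peaks was not tested.

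**Figure D2:**
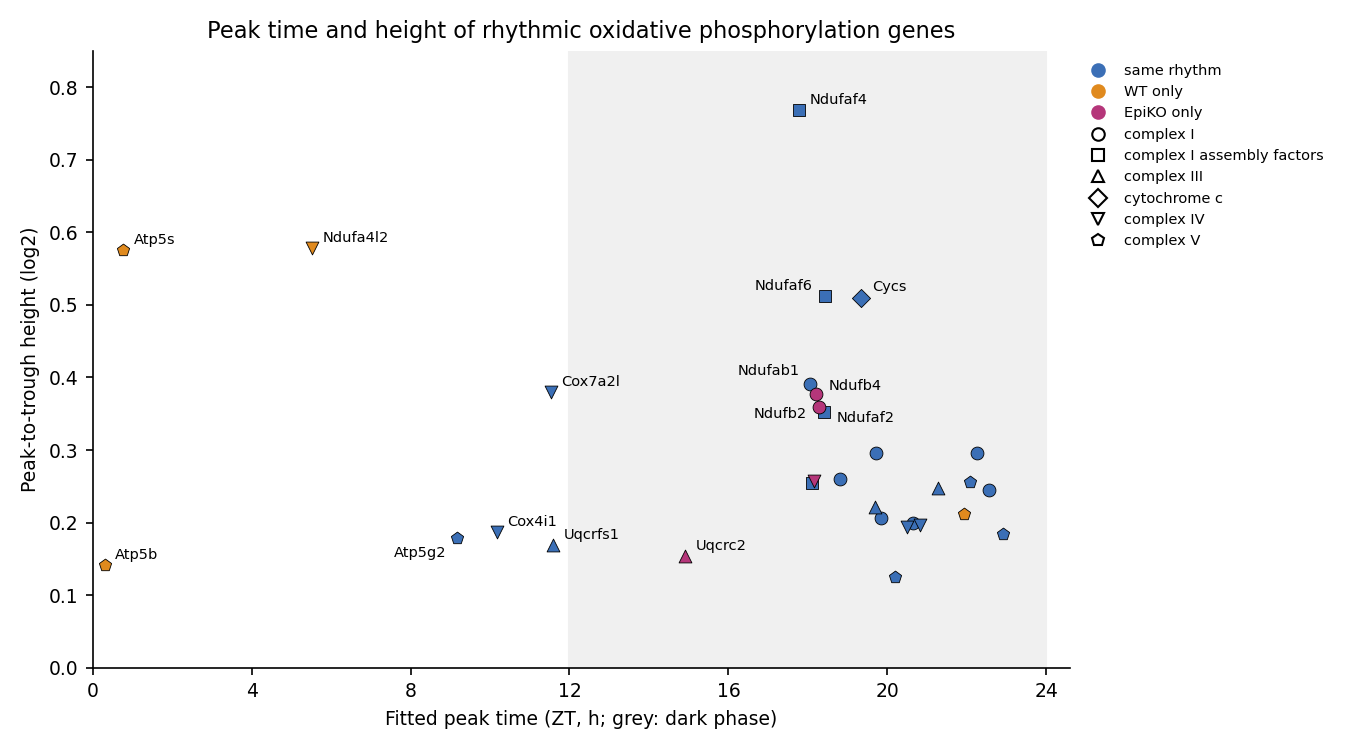
Fitted peak time (ZT, h) against fitted peak-to-trough height (log2) of the 31 oxidative phosphorylation genes assigned a rhythm; colour gives the class and marker shape the complex, and grey marks the dark phase. The blue points gather between ZT17.8 and ZT22.9, with 4 near the end of the light phase.

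The plot of peak time against height shows Ndufaf4 standing above the rest, so the factors that build complex I are described first. Complex I assembly factors bind intermediates of the complex and are not part of the finished enzyme. The 4 rhythmic ones peaked within ZT17.8 to ZT18.4, the narrowest range of the groups with more than 1 such gene, and their median height was 1.35-fold. Ndufaf4 (ENSMUSG00000028261; chromosome 4, 24898083 to 24905001, mm10) had the largest height of all rhythmic oxidative phosphorylation genes, 0.77 on the log2 scale or 1.70-fold. Its fitted level in the authors' deposited table ran from 7.32 at the trough to 8.09 at the peak in WT and from 7.69 to 8.46 in EpiKO, peaking at ZT17.8 with a weight of 0.968. The 2 ranges overlap, and the mean is higher in EpiKO by 0.36 (log2). The same-rhythm model holds this difference fixed at every time. Ndufaf6 varied 1.43-fold with a peak at ZT18.4 (weight 0.914) around a mean of 5.61 in both genotypes. Ndufaf2, a paralog of the subunit Ndufa12, varied 1.28-fold with a peak at ZT18.4 (weight 0.945). For Ndufaf2, 64.0% of transcript windows matched an antisense long noncoding RNA, B230220B15Rik, so that without strand in the counting reads of the pair cannot be told apart. Ndufaf5 varied 1.19-fold (weight 0.520), and Ndufaf1, Ndufaf3, Ndufaf7 and Ndufaf8 were assigned no rhythm.

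Cycs (ENSMUSG00000063694; chromosome 6, 50562563 to 50566538, mm10) encodes somatic cytochrome c, which carries electrons from complex III to complex IV and triggers apoptosis when released. In the authors' deposited table its height was 0.51 (log2), or 1.42-fold, with a peak at ZT19.3 and a weight of 0.950 for the same rhythm. The fitted level ran from 10.1 to 10.6 in WT and from 7.28 to 7.79 in EpiKO, so the curves had the same shape and did not overlap.

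**Figure D3:**
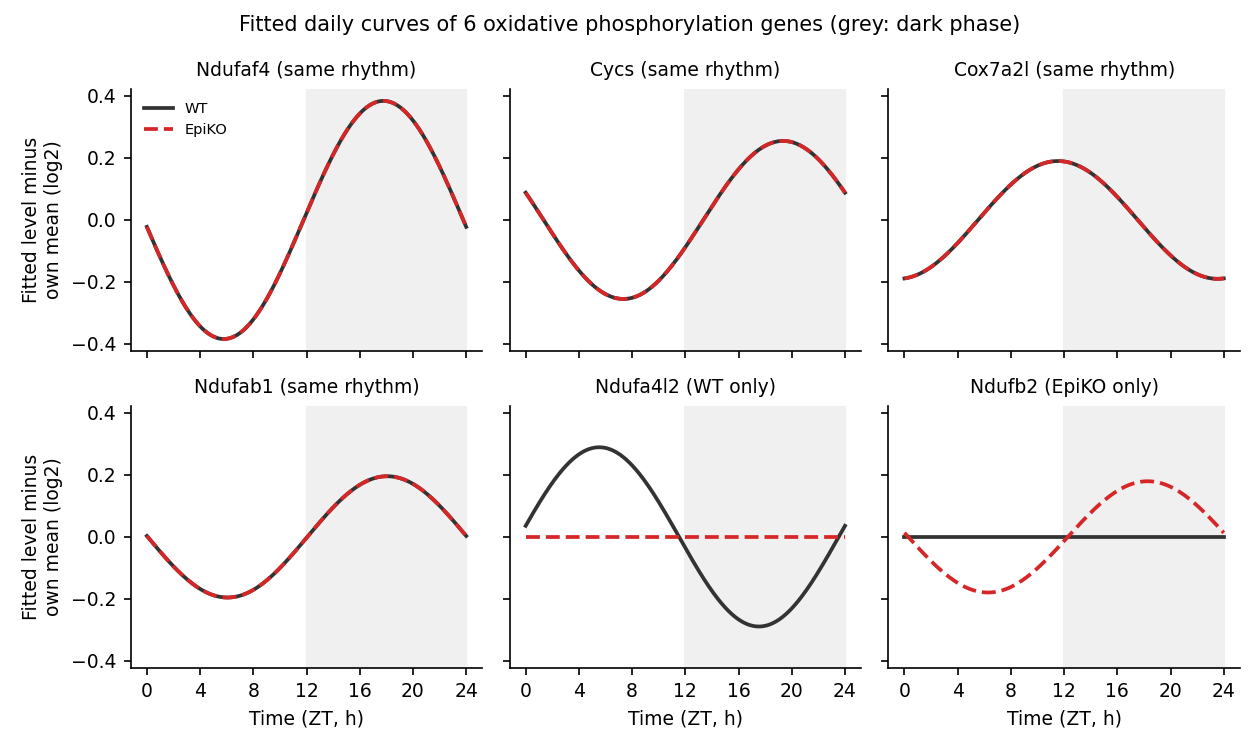
Fitted daily curves of 6 oxidative phosphorylation genes, as log2 level minus each genotype's own mean, against time (ZT, h); solid lines are WT, dashed lines EpiKO, and grey is the dark phase. Ndufaf4, Cycs and Ndufab1 peak in the dark phase and Cox7a2l near its start, with the same curve in both genotypes. Ndufa4l2 is flat in EpiKO and Ndufb2 is flat in WT. These equal or flat curves are set by the model of each gene's class.

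Complex I takes electrons from NADH. Its 7 genes with the same rhythm all peaked in the dark phase, between ZT18.1 and ZT22.6, with a mean of ZT20.3 and heights of 1.15-fold to 1.31-fold. As the fitted curves show, Ndufab1 had the largest of these heights. Ndufab1 is the mitochondrial acyl carrier protein, which also serves fatty acid and lipoic acid synthesis. It ran from 8.77 to 9.17 in WT and from 8.50 to 8.89 in EpiKO, with a peak at ZT18.1 and a weight of 0.936. Ndufb7, an accessory subunit, peaked at ZT19.7 with a height of 1.23-fold and a weight of 0.965, the largest weight among these 7 genes. The other 5 were Ndufa11, Ndufa12, Ndufb3, Ndufs5 and Ndufs7, with weights from 0.578 to 0.897. Ndufb2 and Ndufb4, accessory subunits of the membrane arm, were assigned a rhythm in EpiKO only, with peaks at ZT18.3 and ZT18.2. Ndufb2 varied 1.28-fold in EpiKO with a weight of 0.699 around the same mean level of 8.74 in both genotypes. Ndufb4 varied by 0.38 (log2) in EpiKO with a weight of 0.558, and the same-rhythm model held 0.369, so the assignment is weak. Of the nuclear subunits of the catalytic core, Ndufv1, Ndufv2, Ndufs3 and Ndufs8 were assigned no rhythm, Ndufs7 the same rhythm (1.15-fold, ZT19.8), and Ndufs1 reached no weight of 0.5.

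Complex II, which is also the succinate dehydrogenase of the TCA cycle, had no gene with an assigned rhythm in the authors' deposited table: Sdha, Sdhc and Sdhd were assigned none, and Sdhb reached no weight of 0.5. Complex III passes electrons to cytochrome c. Cyc1, the cytochrome c1 subunit, peaked at ZT19.7 with a height of 1.17-fold and a weight of 0.968, and ran from 10.1 to 10.4 in WT and from 10.5 to 10.7 in EpiKO. Its peak fell within 1 h of that of its electron acceptor Cycs. Uqcrq, a small subunit, peaked at ZT21.3 (1.19-fold, weight 0.707). Uqcrfs1, the Rieske iron-sulfur protein, peaked instead at ZT11.6 (1.12-fold, weight 0.666). Uqcrc2, a core subunit, was assigned a rhythm in EpiKO only, with a height of 1.11-fold and a peak at ZT14.9 (weight 0.762).

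Complex IV reduces oxygen to water, and several of its nuclear subunits come as isoforms used in different tissues. Cox5a and Ndufa4 peaked at ZT20.5 and ZT20.8, with heights of 1.14-fold and 1.15-fold. Cox4i1, the general isoform of the largest nuclear subunit, peaked at ZT10.2 (1.14-fold, weight 0.779). Cox7a2l, which joins complexes III and IV into supercomplexes and is shortened in the C57BL/6 strain, peaked at ZT11.5 with a height of 0.38 (log2). Its weights were 0.542 for the same rhythm and 0.458 for different rhythms, so nearly all of its weight lay on a rhythm in both genotypes. Cox7c, a small subunit, was assigned a rhythm in EpiKO only (1.20-fold, ZT18.2, weight 0.561). Ndufa4l2, a paralog of Ndufa4 induced by hypoxia, was assigned a rhythm in WT only, with fitted levels from 10.5 to 11.1, a height of 1.49-fold and a peak at ZT5.53 (weight 0.655). No other rhythmic oxidative phosphorylation gene peaked between ZT4 and ZT8. Of the isoforms typical of other tissues, Cox4i2 had a mean level of -0.60 in both genotypes, Cox7a1 of 1.76 and Cox6b2 of 4.80, while their general counterparts Cox4i1, Cox7a2 and Cox6b1 were at 12.1, 10.4 and 10.8 in EpiKO; these levels are not per length and are given without ranking. Cox4i2 was not assigned a class, and Cox7a1 and Cox6b2 were assigned no rhythm. Cox6a2 and Cox8b, the muscle isoforms of Cox6a1 and Cox8a, matched no row and were not analysed here.

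Complex V, the ATP synthase, held 3 of the 4 genes with a rhythm in WT only. Atp5s, which encodes coupling factor B and is not a structural subunit, ran from 6.80 to 7.38 in WT with a height of 1.49-fold, a peak at ZT0.764 and a weight of 0.934, the highest of the 8 weights for a rhythm in 1 genotype. Its mean level was 7.69 in EpiKO, above the fitted WT peak. Atp5b, the catalytic beta subunit, varied 1.10-fold in WT with a peak at ZT0.301 (weight 0.799). Atp5o, which links the catalytic head to the stalk, varied 1.16-fold in WT with a peak at ZT21.9 (weight 0.820); 41.2% of its transcript windows were shared with other genes. All 3 peaks lay around the end of the dark phase. Among the same-rhythm genes, Atp5k (subunit e) peaked at ZT22.1 with a height of 1.19-fold and a weight of 0.892, around a mean of 9.25 in both genotypes. Atp5g1 and Atp5g2 encode the same mature c subunit of the rotor, yet their fitted peaks lay at ZT22.9 and ZT9.17, with heights of 1.14-fold and 1.13-fold. Their weights were 0.784 and 0.579, and 10.9% and 38.2% of their windows were shared with other genes. Atp5g3, the remaining c subunit gene, was assigned no rhythm. Atpif1, the inhibitor of the ATP synthase, lies outside the symbol rule and was assigned no rhythm (weight 0.769) at a mean of 11.0 in both genotypes. Atp5j (coupling factor 6) had the smallest height of the 23 genes, 1.09-fold, with a peak at ZT20.2.

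Mean levels were higher in EpiKO for most oxidative phosphorylation genes, by small amounts. In the authors' deposited table, 59 of 91 (64.8%) were higher in EpiKO under the model with unequal means, against 32.7% of all genes and 44.4% of genes at or above the median level. A lower mean was given for 22 (24.2%), against 37.4% of all genes, and 10 were deposited as equal. With a minimum difference of 0.5 (log2) the order turned: 11.0% were higher and 14.3% lower, against 11.7% and 23.7% of all genes. The median difference was 0.24 (log2), or 1.18-fold higher in EpiKO, while the median over all genes was 0. By complex, the genes higher and lower numbered 23 and 8 in complex I (median 0.19), 6 and 1 among complex I assembly factors (0.23), 4 and 0 in complex II (0.29), 8 and 1 in complex III (0.30), 8 and 5 in complex IV (0.04) and 10 and 6 in complex V (0.17). The labels do not say how the 2 sets of libraries were scaled to each other, so small differences of this kind can hold a shift common to many genes.

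The libraries were read in single reads of 51 bases, so for every gene of the table its transcripts were searched for stretches of 51 bases that another gene's transcripts also hold, and the share of such windows was computed. Mean differences went opposite ways on the sides of a 5% limit. Of the 57 oxidative phosphorylation genes with under 5% of windows shared, 48 were higher in EpiKO, 3 lower and 6 equal, with a median of 0.31 (log2), or 1.24-fold. The lower share over all genes under 5% was 29.3%. Of the 34 genes with at least 5% shared, 11 were higher, 19 lower and 4 equal, with a median of -0.26; over all genes with at least 5% the lower share was 59.1%. Within the 57 genes the middle range of differences was narrow, from 0.20 to 0.42 between the quartiles. The medians by complex within the 57 were 0.30 in complex I (21 genes), 0.22 among assembly factors (7), 0.29 in complex II (4), 0.31 in complex III (6), 0.31 in complex IV (9) and 0.42 in complex V (10). Over all genes with under 5% shared and at or above the median level the median was 0.06, with 50.2% higher and 29.6% lower. The same-rhythm calls of the oxidative phosphorylation genes also divided by this limit: 10 of the 57 genes (17.5%) had one, against 17.3% of all genes under 5%, and 13 of the 34 (38.2%) had one, against 15.1% of all genes with at least 5%. The table as a whole thus did not divide in this way, but these shares over all genes were not matched for level. Of all genes at or above the median level, 24.9% had the same rhythm.

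**Figure D4:**
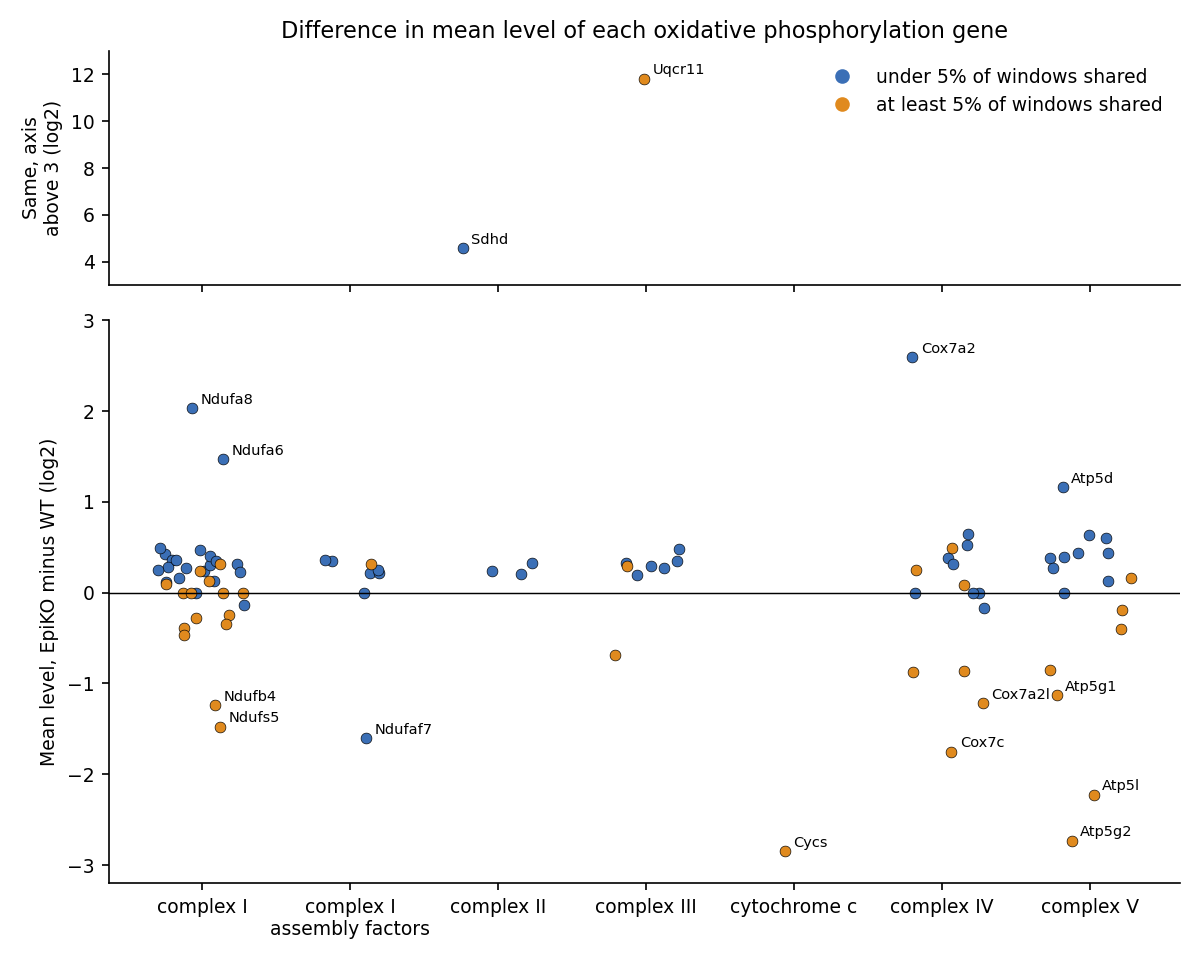
Mean level in EpiKO minus WT (log2) of each of the 91 oxidative phosphorylation genes by complex, coloured by whether at least 5% of the gene's 51-base transcript windows occur in another gene; the upper panel continues the axis above 3. Most blue points lie just above 0, and 8 of the 9 genes lower by at least 1 are orange.

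The plot of mean differences shows large differences both ways beside many small ones. Some genes lay in between, such as Cox5a (-0.87), Uqcrb (-0.69) and Ndufa4l2 (0.64). A mean lower in EpiKO by at least 1 (log2), that is at least 2-fold, was given for 9 genes (16.8% of all genes were lower by as much), and 8 of the 9 shared at least 5% of their windows, with a median of 18.2% over the 9; of all genes lower by as much, 55% did. The mean of Cycs was 10.4 in WT and 7.54 in EpiKO, a difference of -2.85. Atp5g2 was at 10.9 and 8.21 (-2.73), Atp5l, subunit g of the ATP synthase, at 10.7 and 8.51 (-2.22), and Cox7c at 10.1 and 8.37 (-1.75). The other 5 were Ndufaf7 (-1.60), Ndufs5 (-1.47), Ndufb4 (-1.24), Cox7a2l (-1.21) and Atp5g1 (-1.13), of which only Ndufaf7 shared under 5% of windows. Shares of windows were 26.0% for Cycs, 38.2% for Atp5g2, 9.83% for Atp5l and 22.0% for Cox7c. Annotated pseudogenes were then counted alone. Where at least 5% of a gene's windows occur in annotated pseudogenes (20 genes), 14 were lower, 3 higher and 3 equal, with a median 1.46-fold lower in EpiKO; of all protein coding genes of the table with such a share, 78.9% were lower. Of the other 71 genes 56 were higher, 8 lower and 7 equal, with a median of 0.28, while 33.5% of all protein coding genes under that limit were lower. The part of shared reads in these differences was not tested, since the table gives no values per library and the labels no setting for reads with several matches.

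Cycs shows the extent of such sharing. All 215 windows of 51 bases that were counted within its coding sequence also occurred in transcripts of another gene. The window shown is the one of these 215 found in the most other genes. It occurs in Gm10053, annotated as protein coding, and in 5 pseudogenes, Gm10108, Gm13252, Gm13772, Gm14238 and Gm34783, and 0 of these 6 genes have a row in the table. It lies in exon 3 at chr6:50565311-50565361 (GRCm38, minus strand, GENCODE M21) and is printed without capitals, as every base is shared.
Cycs window: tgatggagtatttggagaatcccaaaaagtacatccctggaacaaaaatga

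In the other direction, 6 genes were higher in EpiKO by at least 1 (log2), against 4.53% of all genes, and 4 of the 6 shared no window with another gene, against 46.3% of all genes higher by as much. Uqcr11, a small complex III subunit, had a mean of -2.25 in WT and 9.56 in EpiKO, a difference of 11.8. With 5.97% of its windows shared, Uqcr11 was the only 1 of the 6 at or over the 5% limit. Sdhd, a membrane anchor of complex II, was at 5.48 in WT and 10.1 in EpiKO (4.58 higher), Cox7a2 at 7.80 and 10.4 (2.59 higher), and Ndufa8, an accessory subunit of complex I, at 7.45 and 9.48 (2.03 higher). Ndufa6 (1.47) and Atp5d, the delta subunit of the ATP synthase (1.17), completed the group. These 6 genes were picked by the size of their difference, and the quartiles of all 91 differences were 0 and 0.36. Whether all or a few of the WT libraries carried the low level was not analysed here, as the table gives means only.

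Promoters were searched because most of the same-rhythm genes peaked in the dark phase, and genes of every class were included. RefSeq promoters of GRCm38.p6, 250 bases before to 50 after each start, matched 73 of the 91 genes and 13582 genes of the table. The motif of the respiratory gene activator NRF1, searched as GCGCNTGCG on both strands, was in 26 of 73 (35.6%), against 12.1% of all promoters. Among genes with the same rhythm it was in 8 of 19 (42.1%), and among those with no rhythm in 14 of 41 (34.1%), both above the share over all promoters. The YY1 motif AAGATGGC was in 10 of 73 (13.7%), against 4.24%. The cyclic AMP response element (CRE) TGACGTCA was in 5 of 73 (6.85%), against 3.08%: Cycs, Ndufa10, Ndufa11, Ndufb2 and Uqcrfs1. The E-box CACGTG, the element that the clock activators BMAL1 and CLOCK bind, was in 5 of 73 (6.85%), against 10.5%, and among the same-rhythm genes only in Atp5g1. The ETS motif CCGGAAGT was in 5 of 73 (6.85%), against 7.19%. Among same-rhythm and no-rhythm genes, the CRE was in 3 of 19 and 1 of 41, and YY1 in 2 of 19 and 6 of 41. In the same order, the E-box was in 1 of 19 and 4 of 41, and ETS in 0 of 19 and 4 of 41. These small counts were not tested. A match is a run of letters and not evidence of binding.

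Below are 4 promoters, chosen for the largest height (Ndufaf4), for cytochrome c (Cycs), for holding both the NRF1 and the CRE letters with a dark-phase peak (Ndufa11) and for a CRE with a light-phase peak (Uqcrfs1). They lie at chr4:24897833-24898132 (plus strand), chr6:50566520-50566819 (minus), chr17:56717512-56717811 (plus) and chr13:30545267-30545566 (minus), all RefSeq GRCm38.p6, and are written 5′ to 3′ on the gene's strand. Capitals mark matches to NRF1 or CRE; where NRF1 matched on both strands the overlapping matches form a single run.
Ndufaf4: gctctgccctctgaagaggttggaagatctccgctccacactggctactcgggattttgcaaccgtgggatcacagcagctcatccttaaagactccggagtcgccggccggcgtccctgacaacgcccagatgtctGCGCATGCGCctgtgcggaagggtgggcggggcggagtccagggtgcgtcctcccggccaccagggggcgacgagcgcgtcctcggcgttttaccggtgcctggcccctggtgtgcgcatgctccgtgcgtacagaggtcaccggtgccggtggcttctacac
Cycs: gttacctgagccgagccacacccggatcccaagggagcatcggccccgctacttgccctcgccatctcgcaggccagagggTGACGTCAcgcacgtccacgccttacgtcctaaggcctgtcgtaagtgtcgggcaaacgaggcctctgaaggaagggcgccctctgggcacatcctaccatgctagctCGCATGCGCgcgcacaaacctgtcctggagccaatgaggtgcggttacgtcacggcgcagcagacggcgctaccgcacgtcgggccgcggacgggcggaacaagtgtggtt
Ndufa11: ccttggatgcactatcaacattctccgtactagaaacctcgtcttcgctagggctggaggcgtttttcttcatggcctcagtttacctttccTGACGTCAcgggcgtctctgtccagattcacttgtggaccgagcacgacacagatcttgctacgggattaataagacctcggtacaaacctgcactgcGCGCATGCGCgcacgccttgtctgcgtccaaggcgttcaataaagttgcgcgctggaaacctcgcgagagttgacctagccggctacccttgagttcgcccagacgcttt
Uqcrfs1: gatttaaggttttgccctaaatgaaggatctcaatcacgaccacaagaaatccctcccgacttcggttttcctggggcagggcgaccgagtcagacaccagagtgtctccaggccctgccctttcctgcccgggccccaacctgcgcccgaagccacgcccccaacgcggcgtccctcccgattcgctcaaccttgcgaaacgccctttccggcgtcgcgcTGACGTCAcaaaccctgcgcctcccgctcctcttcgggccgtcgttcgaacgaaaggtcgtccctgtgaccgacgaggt

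Ndufaf4 held NRF1 letters and no CRE, Uqcrfs1 a CRE and no NRF1 letters, and Cycs and Ndufa11 both. Set beside their peaks, these were ZT17.8 for Ndufaf4, ZT19.3 for Cycs, ZT20.6 for Ndufa11 and ZT11.6 for Uqcrfs1.

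Genes that act on the same pathway but fall outside the symbol rule were listed for comparison. Over all genes 16.7% had the same rhythm, and 24.9% of those at or above the median level did. Of all same-rhythm genes, 40.7% peaked between ZT16 and ZT24. WT only, EpiKO only and different rhythms were assigned to 8.41%, 4.31% and 2.65% of all genes. Of 19 regulators of mitochondrial transcription and biogenesis, 6 (31.6%) had the same rhythm, 3 a rhythm in WT only, 0 in EpiKO only and 1 different rhythms. A peak between ZT16 and ZT24 was fitted for 2 of the 6. The PGC-1 family coactivators of respiratory genes were among those without a shared rhythm. Ppargc1a (PGC-1 alpha) varied 2.0-fold with a peak at ZT23.8 in WT and 1.57-fold at ZT8.26 in EpiKO (weight 0.887). Ppargc1b (PGC-1 beta) and Pprc1 varied 1.51-fold and 1.35-fold in WT only, with peaks at ZT15.2 for both. Nrf1, the factor whose motif was searched, had the same rhythm in both genotypes with a height of 1.21-fold, a peak at ZT19.7 and a weight of 0.962. Mitochondrial mRNA handling genes had the same rhythm in 5 of 14 measured (35.7%), and all 5 peaked between ZT16 and ZT24. Among them was Lrpprc, which stabilises mitochondrial mRNAs (1.22-fold, ZT18.3, weight 0.976).

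Assembly factors outside the rule had the same rhythm in 9 of 39 measured (23.1%), close to the 24.9% of all genes at or above the median level. Of these 9, 6 had a peak between ZT16 and ZT24. Uqcc2, an assembly factor of complex III, varied 1.34-fold with a peak at ZT18.2. Lyrm7, which inserts the Rieske protein into complex III, varied 2.29-fold in WT only with a peak at ZT22.6 (weight 0.966). TCA cycle genes, which supply NADH and succinate, had the same rhythm in 6 of 16 (37.5%), 4 of them with a peak between ZT16 and ZT24. Their means were higher in EpiKO for 13 and lower for 3, with a median of 0.27 (log2). Over all genes 32.7% were higher and 37.4% lower, and 44.4% were higher at or above the median level. Carriers and uncoupling proteins had the same rhythm in 0 of 10 measured; Ucp2 was assigned different rhythms, with a height of 1.66-fold and a peak at ZT11.4 in WT, and 1.25-fold and ZT11.8 in EpiKO.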

How the data were processed

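RNA-seq was made from 24 EpiKO epidermis samples with a stranded kit for polyadenylated RNA, per the labels' protocols. Per the submitters' processing notes, the build was mm10 and the tools included featureCounts 1.6.0, HISAT2 2.2.1, edgeR, Trimmomatic 0.36 and SAMtools 1.3.1, with no order or settings. The 1 file used is the table of a dryR comparison with WT epidermis, per the series design text. Its model weights are a score from 0 to 1 as the authors deposited them, and its mean levels and rhythm coefficients are log2 values as deposited. The side that is not named WT was taken as EpiKO. The meaning of each model was taken from its coefficients, and the deposited height equals 2 times the root of their summed squares (tolerance 1e-06), with folds as 2 to that power. Because only fitted values are given, the depth is unknown, replicates were not compared and the test planned across libraries was not run.

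Symbols and positions came from GENCODE mouse M21 (17720 of 17721 identifiers matched). Shared windows were counted over transcripts on either strand, and windows in pseudogenes on the same strand. The scripts were tested on simulated data. The genes, the lists and the limits were chosen with earlier results of these data known. Named genes are, per complex, the 3 rhythmic genes with the largest height, every gene rhythmic in 1 genotype, the 4 largest mean differences each way, isoform pairs, Ndufab1, Cycs, Cyc1 and Atp5if1 (Atpif1 in GENCODE M21). From the related lists, those with a rhythm were named, up to 4 a list by height, though not all. Nrf1, Lrpprc and other names beside a count were chosen after their values were seen. Python 3.11.15, NumPy 2.4.6, pandas 2.3.3 and Matplotlib 3.10.9 were used.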

Additional observations from a re-analysis of the deposited data

How the results depend on the processing

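Of 108 values under other settings, 26 moved by more than 1.5 times (shares) or than the spread between genes (peak times, heights, differences). Another 8 were counted as unable to move: centring subtracted a median of 0, and the median difference does not depend on a weight limit or a minimum difference. The other 74 moved less or not at all, and some of them could not move either. Complexes I and III held structural subunits only, so restricting to these left their shares as they were. Leaving out genes under the 0.25 quantile of level removed 2 genes, Cox4i2 and Cox7a1. Neither had a same-rhythm class, so peak time, dark-phase share and height of that class were fixed there. With a weight limit of 0.8, the same rhythm fell to 10.99% of the 91 genes, no rhythm to 20.88%, WT only to 2.198% and EpiKO only to 0%, and the same-rhythm shares were 11.11% in complex I, 11.11% in complex III, 0% in complex IV and 5.882% in complex V, since fewer genes pass a stricter limit. WT only was 7.692% with a limit of 0.4 and with no limit. With a minimum height of 0.25 (log2), the same rhythm was 12.09%, WT only 2.198%, complex I 11.11%, complex III 0%, complex IV 6.25% and complex V 5.882%, by the same construction. With under 5% of windows shared, EpiKO only was 0%, the same-rhythm shares were 9.524% in complex I, 11.11% in complex IV and 10% in complex V, and means lower in EpiKO were 5.263%; the cause was not tested. With a minimum difference of 0.5 (log2), means were higher in 10.99% and lower in 14.29%. Structural subunits alone gave WT only 2.532%. Averaged model weights, added after seeing the data, gave WT only 11.27% and EpiKO only 9.622%. Also added then were the comparison with genes at or above the median level, centring on their median and the split by pseudogene windows. The mean peak time, the dark-phase share, the median height and, with fewer genes, the median mean difference were among the 74.

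No paired analysis was possible because the table gives fitted values only; leaving out each replicate and the replicate block were not run.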
